A study of Mus musculus with 24 samples.

Results

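Acyl-CoA thioesterases cut fatty acyl-CoA into a free fatty acid and coenzyme A. The 6 genes described are Acot1, Acot2, Acot7, Acot9, Acot11 and Acot13, taken as the probe sets that the platform annotation maps to these symbols, out of 14754 genes read by the array. Each had a single probe set of its own. The tissue was quadriceps, a thigh muscle, taken from male mice whose strain the labels give as C56BL/6J, with 1 Affymetrix expression array per mouse and 24 arrays in all.

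The mice ate palm oil diets that supplied 45% of the energy as fat (high fat) or 10% (low fat). The groups were high fat for 28 days, low fat for 28 days, high fat for 3 days and low fat for 3 days, with 6 mice in each. All mice had first eaten the low fat diet for a run-in of 3 weeks from the age of 9 weeks, so the low fat groups stayed on the run-in diet. They were 16 weeks old at day 28 and 12 weeks old at day 3, so days on the diet and age cannot be told apart. The labels state random assignment to the diets, but each group came from its own range of mouse numbers, and diet and set of animals cannot be told apart either.

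Thioesterases act against the acyl-CoA synthetases, which join fatty acids to coenzyme A, and so set how much acyl-CoA is on hand for oxidation, for lipid synthesis and for signalling. Mouse Acot1 (cytosol) and Acot2 (mitochondrial matrix) belong to a family with an alpha/beta hydrolase fold and are known targets of the fatty acid receptor PPAR-alpha. The others have the hotdog fold. Acot7 is a cytosolic enzyme most abundant in neurons, Acot9 a mitochondrial enzyme, Acot11 (also called Them1) an enzyme of brown fat, and Acot13 (Them2) a small enzyme associated with mitochondria in oxidative tissues.

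Values are log2 of the intensity that the authors computed with GCRMA, a method that corrects background and combines the probes of a set, and the array medians lay at 2.71 to 2.79 on this log2 scale. Only genes above 4 on this scale in 6 or more arrays entered the test. Of the 6 thioesterases, Acot2, Acot7, Acot9 and Acot13 passed on all 24 arrays, whereas Acot1 and Acot11 exceeded that level on none. Levels of different genes are not compared, since each is read by its own probes. Slow fibre genes stood far apart by diet in these samples. The summed intensity of the 8 slow fibre markers, all of them tested, was 4461 to 8191 on high fat and 211 to 2087 on low fat at day 28, and 3407 to 21240 on high fat and 189 to 1785 on low fat at day 3. The muscle identity of the tissue was plain, with 7 measured fast fibre genes at a mean log2 level of 13.50 ± 0.02 (SD, n = 6) on high fat and 13.47 ± 0.03 on low fat at day 28.

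After 28 days the thioesterase that was called higher on high fat was Acot2, by 1.46-fold. After 3 days Acot7 was called higher by 1.34-fold and Acot13 by 1.17-fold. Acot2 at day 3 (1.37-fold, limma adjusted p = 0.0513) and Acot7 at day 28 (1.17-fold, limma adjusted p = 0.0526) narrowly missed a call. No tested thioesterase was called for a diet effect that differed between the days. Acot1, too dim for the test, lay at 1.81-fold at day 28 and 1.85-fold at day 3 with no overlap between the diets, ratios that depend on how low intensities are treated. Acot9 was not called at either day. By limma, 1 of the 4 tested thioesterases was higher at day 28, where 5.35% of the 5793 tested genes were called higher, and 2 of 4 were higher at day 3, where 7.99% were. None was called lower, where 7.18% of tested genes at day 28 and 6.87% at day 3 were. With no filter, Acot1 and Acot2 were called at day 28, and Acot1, Acot7, Acot11 and Acot13 at day 3. A call is an adjusted p under 0.05 (Benjamini-Hochberg, over all tested genes).

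**Figure D1:**
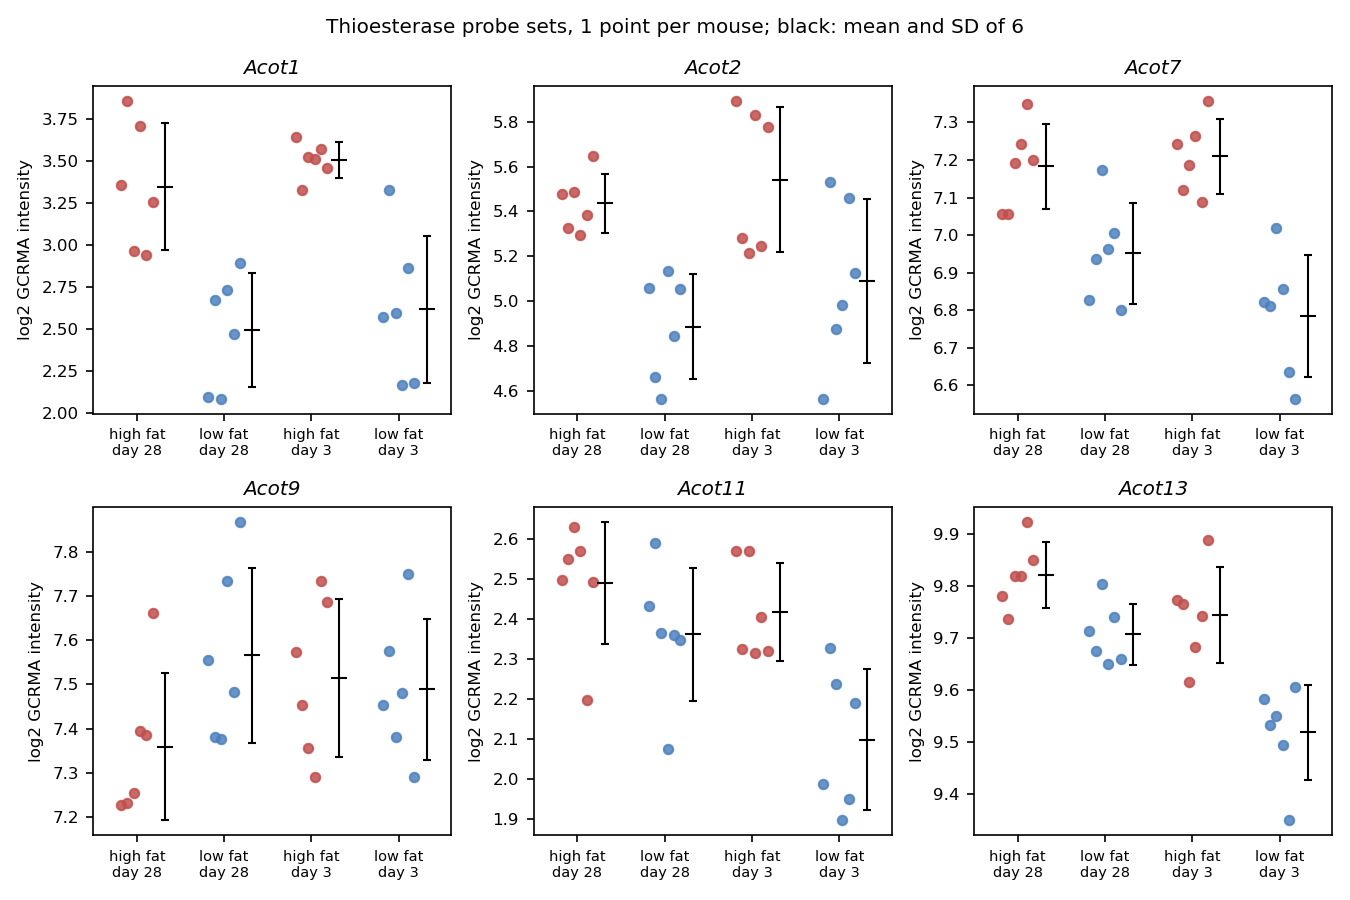
Log2 GCRMA intensity of the 6 thioesterase probe sets, 1 point per mouse, in the 4 diet by day groups (red high fat, blue low fat), with the mean and SD of 6 mice in black; each panel has its own vertical scale, which does not start at 0. Acot1 lay higher in all high fat mice than in any low fat mouse of the same day, while the Acot9 groups overlapped at both days.

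Acot2, which hydrolyses long-chain acyl-CoA inside the mitochondrion, ran from 5.29 to 5.65 (median 5.43, log2) on high fat and from 4.57 to 5.14 (median 4.95) on low fat at day 28. Every high fat mouse stood above every low fat mouse, as in 3.49% of all tested genes at that day. At day 3 the range was 5.22 to 5.89 (median 5.53) on high fat and 4.57 to 5.53 (median 5.06) on low fat. Here the diets overlapped, with 3 of the 6 high fat mice above all low fat mice and 2 low fat mice above the lowest high fat mouse. The high fat mice of day 3 fell into 3 between 5.22 and 5.28 and 3 between 5.78 and 5.89. Acot2 was higher by 0.55 ± 0.15 (log2, SE, 95% interval 0.23 to 0.87, limma adjusted p = 0.0194) at day 28. The difference of 0.45 ± 0.15 (interval 0.13 to 0.77) at day 3 missed the threshold at an adjusted p = 0.0513. Over the 10 alternatives in limma its adjusted p at day 3 ran from 0.0104 with array weights, which count down arrays that fit the group means poorly, to 0.263 when the mean of the slow fibre genes was a covariate. With only the arrays of that day it was 0.141.

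Acot1, the cytosolic enzyme, had log2 levels of 2.94 to 3.86 (median 3.31) on high fat and 2.09 to 2.90 (median 2.57) on low fat at day 28. At day 3 it had 3.33 to 3.64 (median 3.51) on high fat and 2.17 to 3.33 (median 2.59) on low fat. All high fat mice lay above all low fat mice at both days, a pattern seen with no filter in 0.522% of the 14754 genes. With Acot2 that makes 2 of the 6 thioesterases without overlap at day 28 (1.82% of the 14754 genes), and with Acot7 and Acot13 3 of 6 at day 3 (1.86%). The 6 were chosen with earlier results of these data known, so these counts are a description only. The Acot1 gap at day 3 was narrow, since the highest low fat mouse, replicate 2, had 3.327 and the lowest high fat mouse 3.329. The differences were 0.86 ± 0.18 at day 28 and 0.89 ± 0.18 at day 3 (log2, SE). In the limma fit with no filter they had adjusted p = 0.00503 and 0.00432, where 2.14% of the 14754 genes at day 28 and 3.10% at day 3 were called higher. Two-sided exact permutation tests of the diet difference gave p = 0.00216 at each day, the smallest p that 6 against 6 mice allow. All these levels lay near the median of the array, where the background correction weighs most. With 16 added to the intensity before the logarithm, the Acot1 differences shrank to 0.28 at day 28 and 0.29 at day 3, below those of Acot2 on that scale (0.38 and 0.32).

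Acot2 and Acot1 are adjacent genes, followed by Acot4, in the RefSeq order of protein-coding genes. They are close in sequence, so reads of one by the probes of the other were not separated here. The 4 further probe sets of that family, for Acot3, Acot4, Acot5 and Acot6, did not pass the filter, with group means of 1.37 to 2.84 (log2). In the limma fit with no filter, Acot6 was called higher at day 28, by 0.26 ± 0.07 (log2, SE, adjusted p = 0.035). At that day 2.14% of the 14754 genes were called higher in this fit. At day 3 Acot6 had 0.009 ± 0.07 (adjusted p = 0.971). Acot3, Acot4 and Acot5 had -0.12, -0.03 and -0.06 at day 28 and were called at neither day. Because both neighbours lay higher on high fat, the 250 bases before their start sites (RefSeq, GRCm38.p6, plus strand) are shown. Acot2 is at chr12:83987611-83987860 and Acot1 at chr12:84009252-84009501. Capitals mark matches to CCAAT (or its reverse complement ATTGG), and in Acot2 also a stretch with 3 mismatches to the direct repeat bound by PPARs (AGGTCA, any base, AGGTCA).
Acot2 promoter: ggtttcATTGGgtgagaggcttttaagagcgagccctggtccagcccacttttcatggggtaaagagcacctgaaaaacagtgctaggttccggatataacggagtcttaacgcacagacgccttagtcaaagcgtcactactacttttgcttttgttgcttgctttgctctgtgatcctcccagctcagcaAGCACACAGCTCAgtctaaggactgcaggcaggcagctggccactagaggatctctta
Acot1 promoter: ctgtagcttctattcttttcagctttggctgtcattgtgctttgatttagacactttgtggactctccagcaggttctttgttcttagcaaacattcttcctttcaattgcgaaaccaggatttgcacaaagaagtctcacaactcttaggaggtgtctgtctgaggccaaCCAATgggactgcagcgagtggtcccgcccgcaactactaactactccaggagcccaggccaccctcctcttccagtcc
Both strands were searched. The CCAAT match lay 244 bases before the start in Acot2 and 79 bases before it in Acot1, and 33.8% of all 32851 promoter windows of this length held one. The repeat, with up to 3 mismatches in its 12 fixed letters, matched 58 bases before the start in Acot2 and nowhere in Acot1, against 21.3% of all windows. Neither window held an exact half-site AGGTCA, which 14.0% of windows had. Promoter windows were at hand for 5 of the 6 thioesterases, with 2 windows for Acot11. Of these, 1 Acot11 window held a match to the repeat with 3 mismatches, 225 bases before the start, and the other Acot11 window and those of Acot7 and Acot9 held none.

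Acot7, the cytosolic long-chain enzyme, had log2 levels of 7.06 to 7.35 (median 7.20) on high fat and 6.80 to 7.17 (median 6.95) on low fat at day 28. At day 3 it had 7.09 to 7.36 (median 7.22) on high fat and 6.56 to 7.02 (median 6.82) on low fat. The diets did not overlap at day 3, as in 3.50% of tested genes with high fat higher. At day 28 they overlapped by 1 low fat mouse, replicate 3 at 7.17. Acot7 was higher by 0.42 ± 0.08 (log2, SE, interval 0.26 to 0.59, adjusted p = 0.000783) at day 3. At day 28 the difference of 0.23 ± 0.08 (interval 0.07 to 0.39) was just short of a call, at an adjusted p = 0.0526. Since Acot7 is known from neurons, nerve and Schwann cell markers were set beside it. Of 10 listed, 4 had a probe set of their own and none passed the filter. Their summed intensity was 20.5 to 26.7 on high fat and 17.5 to 22.4 on low fat at day 28, and 19.9 to 23.3 on high fat and 17.0 to 21.0 on low fat at day 3. Their part in the result was not tested.

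Acot13, the small enzyme of oxidative tissues, spread least among mice. Its log2 level was 9.74 to 9.92 (median 9.82) on high fat and 9.65 to 9.80 (median 9.69) on low fat at day 28, and 9.62 to 9.89 (median 9.75) on high fat and 9.35 to 9.61 (median 9.54) on low fat at day 3. No low fat mouse reached the high fat mice at day 3, while at day 28, 4 high fat mice stood above all low fat mice. The rise at day 3 was 0.23 ± 0.05 (log2, SE, interval 0.11 to 0.34, adjusted p = 0.00645), and it lost its call when only the 12 arrays of that day were fitted (adjusted p = 0.0539). The difference at day 28, 0.11 ± 0.05 (interval 0.0034 to 0.23), was not called (adjusted p = 0.186). In the low fat mice the level was higher at day 28 than at day 3 by 0.19 ± 0.05, with an unadjusted p = 0.00191 and an adjusted p = 0.114.

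Acot9, the mitochondrial hotdog enzyme, had means of 7.36 ± 0.17 on high fat and 7.57 ± 0.20 on low fat at day 28, and 7.52 ± 0.18 on high fat and 7.49 ± 0.16 on low fat at day 3 (log2, SD, n = 6). The groups overlapped at both days. Its difference was -0.21 ± 0.10 (SE, interval -0.42 to 0.0019, adjusted p = 0.205) at day 28 and 0.03 ± 0.10 (interval -0.18 to 0.24, adjusted p = 0.889) at day 3. Acot10, in the mouse an intronless relative of Acot9, had -0.30 ± 0.15 and 0.04 ± 0.15, and was not called either (adjusted p = 0.212 and 0.888). Probes of these relatives were not separated here.

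Acot11, the thioesterase of brown fat, was no higher than 2.63 (log2) on any array. Its means were 2.49 ± 0.15 on high fat and 2.36 ± 0.17 on low fat at day 28, and 2.42 ± 0.12 on high fat and 2.10 ± 0.18 on low fat at day 3 (SD, n = 6). In the fit with no filter it had a difference of 0.32 ± 0.09 (adjusted p = 0.0394) at day 3 and 0.13 ± 0.09 (adjusted p = 0.513) at day 28, at levels below the array median. With 16 added to the intensity they were 0.07 at day 3 and 0.03 at day 28. Of the 4 tested brown fat markers, 2 were called lower on high fat at day 28 and 0 at day 3 (limma, with 1 at an unadjusted p under 0.05 at day 3). The 2 were Ucp1 (-3.49 ± 1.03, log2, SE) and Cidea (-5.59 ± 0.85). The other tested ones had -0.13 (Cox7a1) and 0.115 (Cox8b) at day 28, and 0.02 and 0.11 at day 3. The mean of the 6 brown fat markers, 4 of which passed the filter, was 5.51 ± 0.16 on high fat and 7.02 ± 0.45 on low fat at day 28 (SD, n = 6). Their summed intensity was 8156 to 9155 on high fat and 7998 to 9131 on low fat at day 28, and 7174 to 8180 on high fat and 6746 to 8196 on low fat at day 3. These sums rest mainly on Cox8b and Cox7a1, and so hide that Ucp1 and Cidea were lower on high fat than on low fat at day 28. At day 28 Cox8b and Cox7a1 had means of 12.49 and 11.38 on high fat and 12.38 and 11.51 on low fat (log2). Ucp1 and Cidea had 2.25 and 2.37 on high fat and 5.73 and 7.96 on low fat. Elovl3 and Prdm16 did not pass the filter, and had -0.28 and 0.34 at day 28 and -0.14 and 0.07 at day 3. Their part in the Acot11 values was not tested. In whole muscle, fewer cells of a type and less RNA per cell cannot be told apart.

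**Figure D2:**
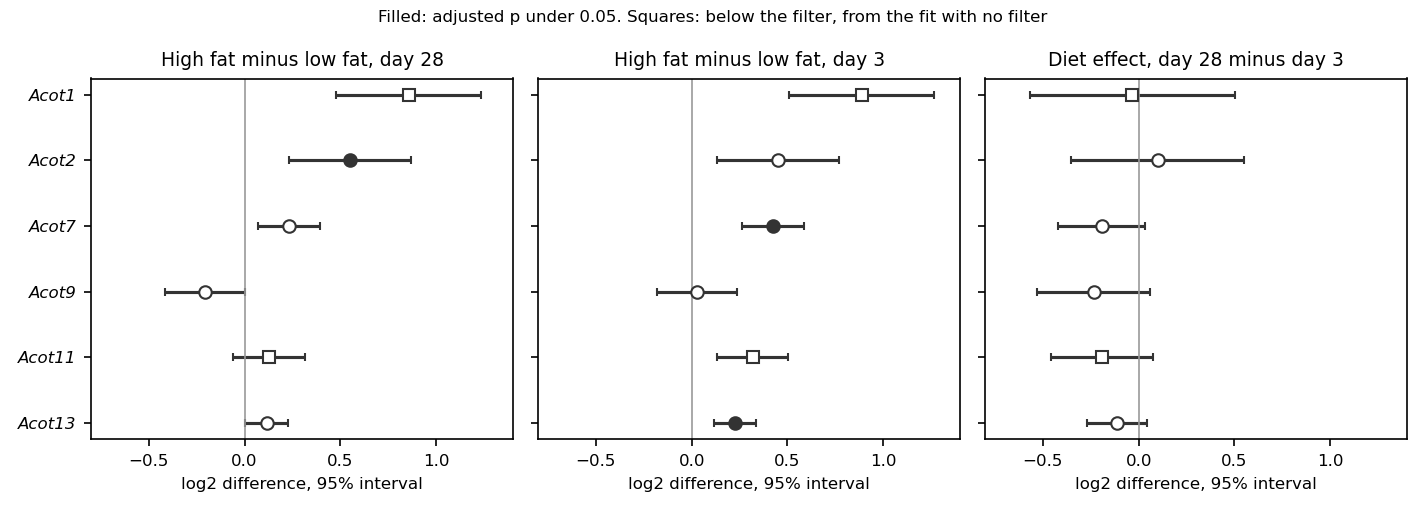
Log2 difference of each thioesterase with its 95% interval from the limma fit: high fat minus low fat at day 28 and at day 3, and the day 28 effect minus the day 3 effect; circles passed the filter, squares are Acot1 and Acot11 from the fit with no filter, and filled circles are called, while squares were not tested. The filled points are Acot2 at day 28 and Acot7 and Acot13 at day 3, and every interval in the right panel includes 0.

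No thioesterase was shown to respond differently at the 2 days. The diet effect at day 28 minus that at day 3 was called for 0 of the 4 tested genes by limma, and for 0 at an unadjusted p under 0.05, with 1.38% of all tested genes called. The difference of effects was 0.10 ± 0.22 (log2, SE) for Acot2, -0.19 ± 0.11 for Acot7 and -0.11 ± 0.08 for Acot13. It was -0.23 ± 0.14 for Acot9 (interval -0.53 to 0.06). Between days within a diet, limma called 0 of 4 on high fat, where 0.552% of tested genes were called, and 0 of 4 on low fat, where 0.345% were. At an unadjusted p under 0.05 the counts were 0 on high fat and 2 on low fat, namely Acot7 (adjusted p = 0.283) and Acot13 (adjusted p = 0.114). The share of all tested genes at that unadjusted threshold was not counted, so whether these counts are many or few cannot be said.

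Ranked by group mean, Acot1 and Acot2 ran from high fat day 3 through high fat day 28 and low fat day 3 to low fat day 28. For Acot1 the step between high fat day 28 and low fat day 3, 0.73, exceeded the larger SD of the neighbours (0.44). No step between neighbours did so for Acot2 or for Acot9. Acot7 ran from high fat day 3 through high fat day 28 and low fat day 28 to low fat day 3, with the steps above and below low fat day 28 (0.23 and 0.17) larger than the SD. Acot11 and Acot13 shared the order high fat day 28, high fat day 3, low fat day 28, low fat day 3. Only the last step exceeded the SD there, at 0.26 for Acot11 and 0.19 for Acot13.

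Slow fibre genes moved with the diet more than any thioesterase did, and the diets did not overlap in their mean level. With that mean as a covariate, which parts the diets by itself, none of the 4 tested thioesterases was called and few genes of any kind were (28 at day 28 and 16 at day 3). The Acot7 difference at day 3 was then 0.29 ± 0.14 (log2, SE, adjusted p = 0.385) and that of Acot13 0.15 ± 0.09 (adjusted p = 0.568). The Acot2 difference at day 28 was 0.81 ± 0.25 with it (adjusted p = 0.176), and Acot1 had 1.02 at day 28 and 1.07 at day 3. Acot9 turned from -0.21 to 0.10 at day 28, and Acot11 moved to -0.14 at day 28 and 0.02 at day 3. Since the diets did not overlap in slow fibre level, that level and diet cannot be told apart for any thioesterase.

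**Figure D3:**
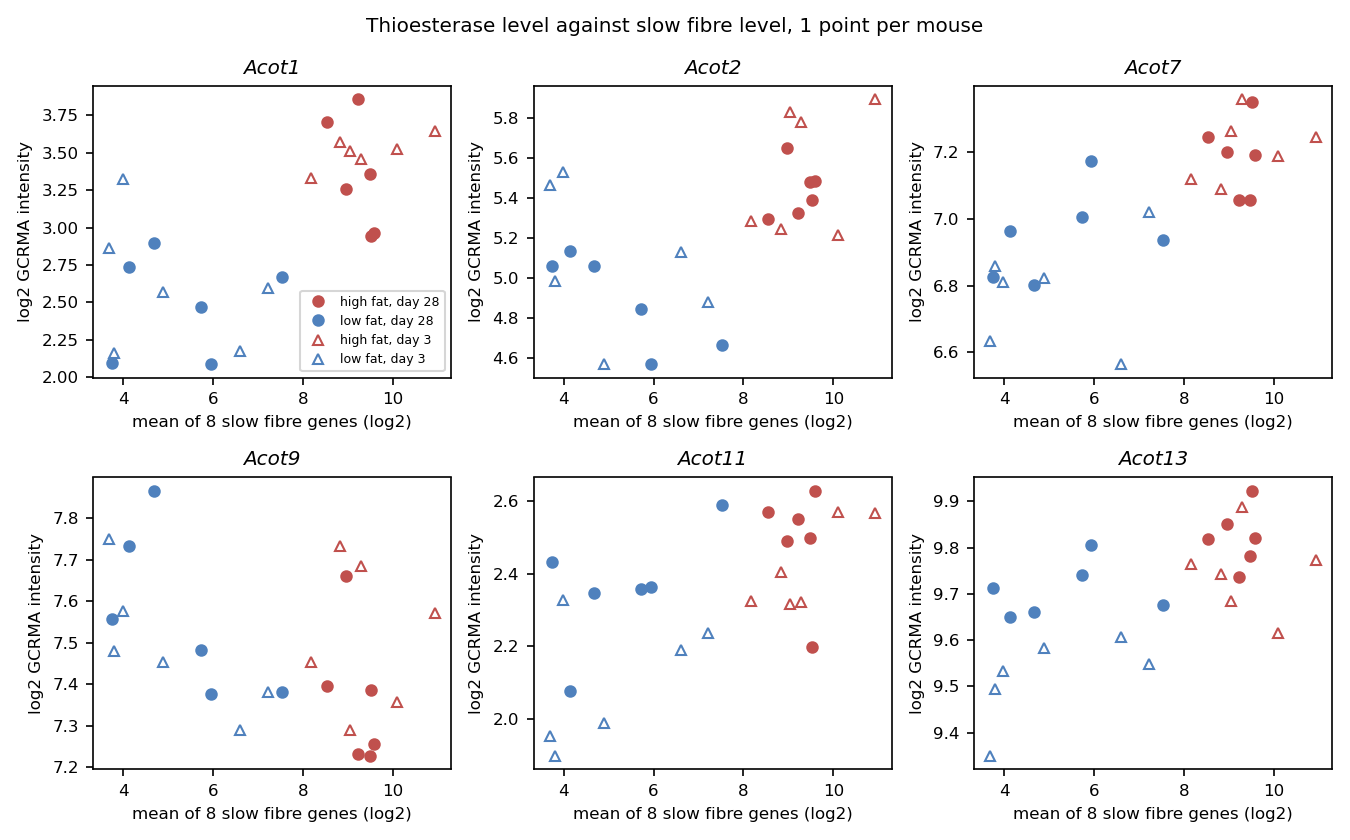
Log2 level of each thioesterase against the mean log2 level of 8 slow fibre genes, 1 point per mouse (red high fat, blue low fat; filled circles day 28, open triangles day 3). The low fat mice lie between 3.69 and 7.53 on the horizontal axis and the high fat mice between 8.17 and 10.93, with no overlap.

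Other cell types differed as well. Of 11 adipocyte markers, 9 were measured and 8 tested, and 6 were called lower on high fat at day 28 and 3 lower and 1 higher at day 3. The 1 higher was Car3 (0.40 ± 0.09, log2, SE, limma adjusted p = 0.00586). The summed intensity of the 9 measured was 11020 to 12960 on high fat and 13780 to 23160 on low fat at day 28, and 11700 to 19650 on high fat and 9722 to 18680 on low fat at day 3. These sums rest mainly on Car3, Fabp4 and Lpl. The mean log2 level of the 9 was 6.56 to 7.78 on high fat and 8.58 to 9.87 on low fat at day 28. At day 3 it was 6.82 to 9.41 on high fat and 7.31 to 9.26 on low fat, with group means of 7.65 and 8.62. Lep did not pass the filter. At day 28 the adipocyte mean parts the diets by itself. With it as a covariate 45 genes of any kind were called at that day, where 726 were without it. Acot2 then had 0.74 ± 0.25 (adjusted p = 0.224) at day 28, and Acot7 and Acot13 kept their calls at day 3, at 0.42 and 0.25. Of 8 endothelial markers, 7 were tested, and 0 were called at day 28 and 5 were called higher at day 3 by limma, with 6 and 5 at an unadjusted p under 0.05. Their summed intensity was 727 to 968 on high fat and 630 to 793 on low fat at day 28, and 766 to 899 on high fat and 605 to 718 on low fat at day 3. Macrophage markers, 7 of 9 tested, were called lower in 7 cases at day 28 and 1 at day 3, with sums of 354 to 699 on high fat and 701 to 1688 on low fat at day 28, and 466 to 779 on high fat and 591 to 1462 on low fat at day 3. Cdh5, Cd68 and Cd14 did not pass the filter. The part of endothelial and macrophage markers in the thioesterase results was not tested.

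The rest of the acyl-CoA pathway gives the setting. Of the 7 tested among 17 other thioesterases, 1 was called at day 28 and 0 at day 3 (limma), with 1 at each day at an unadjusted p under 0.05. Hibch, the hydrolase of valine breakdown, was lower at day 28 by -0.35 ± 0.09 (log2, SE, adjusted p = 0.0133). The median difference of that list was -0.17 at day 28 and -0.04 at day 3, beside 0.17 and 0.33 over the 4 tested genes described here and 0.0097 and -0.0051 over all tested genes. Both lists were chosen with earlier results of these data known, so these medians are a description only.

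Acyl-CoA synthetases, which work against thioesterases, went both ways. Of 7 tested, 1 was higher and 3 were lower at day 28, and 1 was higher and 1 lower at day 3. Acsl6 was higher by 0.55 ± 0.09 (adjusted p = 0.000339) at day 28 and 0.60 ± 0.09 (adjusted p = 0.000164) at day 3. Acss2, the cytosolic acetyl-CoA synthetase, had -1.09 ± 0.20 and Acsl5 -0.59 ± 0.15 at day 28. Acsl3, a synthetase of lipid droplets, had -0.68 ± 0.17 at day 28 and -0.74 ± 0.17 at day 3. The list medians were -0.14 at day 28 and -0.07 at day 3. At day 28, 6 of 8 tested adipocyte markers were also called lower on high fat. Their part in the synthetase values was not tested.

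Genes of coenzyme A synthesis, transport and breakdown were called in 0 of 10 cases at day 28 and 1 of 10 at day 3 (limma), with 2 and 4 at an unadjusted p under 0.05. Nudt7, a peroxisomal hydrolase of coenzyme A, was higher at day 3 by 0.58 ± 0.11 (adjusted p = 0.00159). Of the 20 genes of the carnitine shuttle and beta-oxidation, 15 were higher at day 28 and 14 at day 3, with none lower and medians of 0.33 at each day. Slc25a20, the mitochondrial carnitine carrier, was higher by 0.52 ± 0.06 at day 28 and 0.58 ± 0.06 at day 3, Acaa2, a thiolase, by 0.73 and 0.80, and Ech1, a dienoyl-CoA isomerase, by 0.57 and 0.62.

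Known targets of PPARs were split. Of 12 tested, 6 were higher and 3 lower at day 28, and 5 were higher and 2 lower at day 3, with medians of 0.15 and 0.18. Plin5, a lipid droplet protein of oxidative tissue, was higher by 0.82 ± 0.15 at day 28 and 0.93 ± 0.15 at day 3. Plin2, a general lipid droplet protein, was lower by -1.49 ± 0.24 at day 28, as were the peroxisomal enzyme Ehhadh (-1.36 ± 0.33) and the lipase inhibitor Angptl4 (-1.62 ± 0.45). Adipocyte markers were called lower in the same mice in 6 of 8 cases at day 28. Their part in the values of this list was not tested. Ucp3, a mitochondrial carrier, and Pdk4, the kinase that inhibits pyruvate dehydrogenase, were lower at day 3, by -0.78 ± 0.20 and -0.41 ± 0.11. Cpt1b, Acadm, Hadha and Acaa2 are members of this list and of the beta-oxidation list, and Lpl of this list and the adipocyte list.

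**Figure D4:**
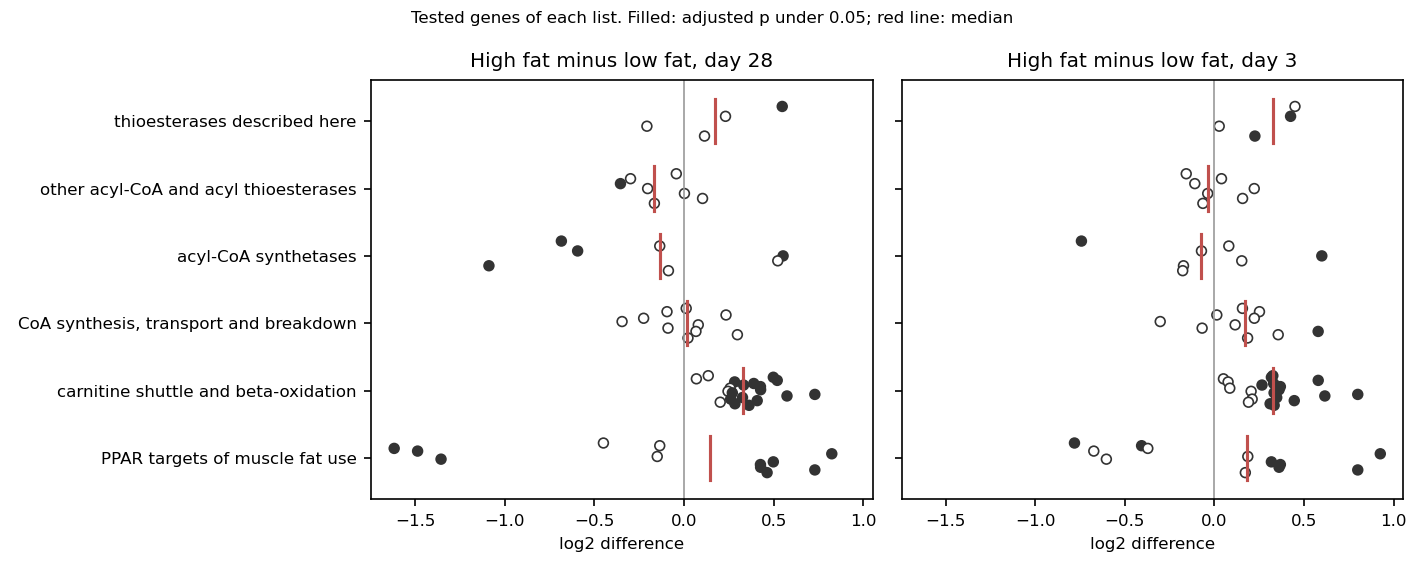
Log2 difference, high fat minus low fat, of every tested gene of the 6 pathway lists at day 28 (left) and day 3 (right); filled points are called by limma and the red line is the list's median. The beta-oxidation genes lie to the right of 0 at both days, with medians of 0.33, while the synthetases lie on both sides.

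Among themselves the thioesterases did not move as a block. Over the 24 arrays the correlation (Pearson r, as a description) was 0.78 for Acot7 with Acot13 and 0.69 for Acot1 with Acot2. After the group means were taken out it was 0.48 and 0.29, and that of Acot1 with Acot13 was -0.45. All points share the 24 arrays and their diets.

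The 3 genes most like each tested thioesterase were ranked by Pearson r over the 24 arrays among the 5792 other tested genes. For Acot2 they were Nfatc1, a transcription factor of calcium signalling (0.81), Plin5 (0.78) and Vwf, von Willebrand factor of the vessel wall (0.77), and with group means taken out these were 0.58, 0.47 and 0.57. For Acot7 they were Atp5k, a subunit of ATP synthase (0.83), Dhrs4, a carbonyl reductase (0.83), and Bola3, a factor of iron-sulphur cluster assembly (0.83), with 0.56, 0.47 and 0.45 after the group means. Acot13 was most like Cuedc2 (0.91), Ndufs8, a subunit of complex I (0.90), and Glrx5, a glutaredoxin of iron-sulphur clusters (0.88), with 0.76, 0.71 and 0.70 after the group means. Acot9 was most like Acot10 (0.78), Mrpl38, a protein of the mitochondrial ribosome (0.76), and Apex1, a DNA repair enzyme (0.76), with 0.74, 0.76 and 0.86 after the group means.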

How the data were processed

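Log2 was taken of the deposited intensity, 1 value per probe set and array. It was made by the authors with GCRMA, per the submitters' processing notes; its version, probe definition and genome build are not given in the sources used here. That the scale is linear was read from the values, which ran from 0.881 to 20520. Of 16361 probe sets, 14771 had 1 gene symbol, 589 several and 937 none listed, and 64 were controls. The probe set of highest mean stood for a gene. Any pair of arrays correlated at 0.978 to 0.995. The number of arrays limits the precision.

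Group means were fitted over all 24 arrays with limma 3.58.1 in R 4.3.3 (lmFit, eBayes, 20 residual degrees of freedom), two-sided, adjusted by Benjamini-Hochberg over the 5793 genes that passed the filter. Each array is a separate mouse, so p-values measure the spread between mice. Counts at an unadjusted p under 0.05 are given for members and lists only, without the share of all tested genes. Exact permutation tests used scipy 1.17.1. The members and gene lists were chosen with earlier results of these data known. All 6 members were named, with the 3 genes of highest r for each tested one, and from each list up to 3 called genes of smallest adjusted p, plus those of opposite direction where 3 or fewer. Alternatives were another offset, quantile normalization, no filter or a stricter one (log2 over 5 on at least 12 arrays), averaged probe sets, fewer arrays, array weights, the replicate number as a block, marker means as covariates, and each array left out. The labels of 1 array, low fat day 3 replicate 1, do not name the removal of genomic DNA.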

Additional observations from a re-analysis of the deposited data

Results flagged for a closer look

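Of the 24 sets of 6 mice checked (6 thioesterases in 4 groups), 1 held a mouse far from the others. Acot11 in high fat mice at day 28 had its lowest log2 value, 2.20, in replicate 5, and the next lowest was 2.49, a gap of 0.681 of the group's range. Chance sets apart about 1 group in 20, here 1.2 of the 24. No thioesterase was shown to have a diet effect that differed between the days.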

How the results depend on the processing

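Under the alternatives, the count of thioesterases called at day 28, 1 in the report, was 2 with an offset of 16, with quantile normalization, with no filter and with the stricter filter. It was 0 with the slow fibre mean and 0 with the adipocyte mean as a covariate, and 1 to 2 with single arrays left out. The count at day 3, 2 in the report, was 4 with no filter, 3 with the offset, the stricter filter, array weights and the adipocyte mean, 1 with only the arrays compared, 0 with the slow fibre mean, and 2 to 3 with single arrays left out. The causes were not tested, apart from the 6 rather than 4 genes that enter with no filter. Counts for the other comparisons were 0 under every alternative run. Acot7 was called at day 28 without high fat day 28 replicates 1 (adjusted p = 0.0459) or 2 (0.045), high fat day 3 replicate 5 (0.049), low fat day 28 replicate 3 (0.0199) or low fat day 3 replicates 3 (0.0391), 5 (0.0458) or 6 (0.0413). Acot2 was called at day 3 without high fat day 3 replicates 2 (0.0424), 3 (0.0335) or 5 (0.0368), low fat day 28 replicate 3 (0.0494) or low fat day 3 replicates 2 (0.0245) or 5 (0.0322). Over the 10 other alternatives adjusted p ran from 0.0281 to 0.903 for Acot7 at day 28, from 0.0104 to 0.263 for Acot2 at day 3, from 0.0039 to 0.224 for Acot2 at day 28, from 0.00062 to 0.385 for Acot7 at day 3 and from 0.00455 to 0.568 for Acot13 at day 3. Signs turned for Acot9 at day 28 with the slow fibre mean (0.0959) and the adipocyte mean (0.0167), for Acot2 in the difference of effects with array weights (-0.0013), for Acot9 at day 3 without high fat replicate 5 or 6 or low fat replicate 6 (-0.0169 to 0.0787 over all arrays left out), and for Acot7 between days on high fat without high fat day 3 replicate 6 (-0.0599 to 0.0027). None of these was called. Among the dim genes, Acot11 at day 28 turned with the slow fibre mean (-0.1371). Acot1 turned in the difference of effects with quantile normalization (0.0395), the adipocyte mean (0.0192) and 7 single arrays left out (up to 0.0581), and between days on low fat without low fat day 3 replicate 2 (0.0172).

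Same-numbered mice of different groups were not treated as pairs. In each comparison 2 or 3 of 6 pairs of deviations correlated above 0.1, with r up to 0.537 between the diets at day 28. Such correlations cannot exclude a link between mice of the same number. With the replicate block, 1 thioesterase was called at day 28 and 2 at day 3, as without it. Counts of all genes called that moved by over 1.5 times follow. At day 28, 726 became 28 with the slow fibre mean and 45 with the adipocyte mean. At day 3, 861 became 507 with only the arrays compared and 16 with the slow fibre mean. For the difference of effects, 80 became 6 with no filter, 124 with the stricter filter, 278 with array weights, 176 with the replicate block, 6 with the adipocyte mean and 19 to 115 with arrays left out. Between days on high fat, 32 became 9 with no filter, 106 with array weights, 18 with the slow fibre mean, 7 with the adipocyte mean and 3 to 51 with arrays left out. On low fat, 20 became 40 with quantile normalization, 3 with no filter, 0 with only the arrays compared, 132 with array weights, 32 with the replicate block, 0 with the adipocyte mean and 0 to 59 with arrays left out. The dimness of Acot1 and Acot11 limits their folds.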

Other observations

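Within a diet, no thioesterase followed the slow fibre level past correction. Each level was set against the slow fibre mean over the 12 mice of a diet, as deviations from the day means, with permutations within days, giving 12 relations. This was chosen after the data were seen. The closest was Acot9 on low fat, with r = -0.73 (permutation p = 0.0123, adjusted p = 0.148) and rho = -0.75 (permutation p = 0.0112, adjusted p = 0.134). It was -0.70 without the 2 mice farthest from the median, and -0.68 at day 28 and -0.80 at day 3. On high fat Acot9 had r = -0.14 (permutation p = 0.705, adjusted p = 0.846) and rho = -0.23 (permutation p = 0.509, adjusted p = 0.764), and the difference between diets was not tested. Acot2 on low fat had r = -0.57 (permutation p = 0.0753, adjusted p = 0.315) and rho = -0.63 (permutation p = 0.0418, adjusted p = 0.251), and r = -0.49 without the 2 farthest mice. On high fat Acot2 had r = 0.39 (permutation p = 0.356, adjusted p = 0.639) and rho = 0.27 (permutation p = 0.446, adjusted p = 0.764), and r = -0.16 without the 2 farthest mice. Single days, of 6 mice each, could differ in sign and were not tested. On high fat Acot1 had r = -0.63 at day 28 and 0.78 at day 3, and Acot11 -0.29 and 0.84. For Acot2 on low fat it was -0.85 at day 28 and -0.42 at day 3.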
